A study of Mus musculus with 14 samples.

Results

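The Notch pathway genes considered were the receptors Notch1 and Notch4, the ligands Dll1, Dll4, Jag1 and Jag2, the nuclear mediator Rbpj, and the target genes Hes1, Hey1 and Efnb2. These 10 genes were listed by name, and each was looked for among the RefSeq transcript identifiers of 14 count files. Of the 10, 9 matched 1 target each among 23930 targets, and all 9 were among the 14168 targets abundant enough to test. Rbpj was not analysed here.

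The messenger RNA came from liver sinusoidal endothelial cells (LSECs), the fenestrated endothelium of the liver capillaries, sorted by flow cytometry from wild-type female C57BL/6J mice through a gate for dim CD45, high STAB2 and high CD146. The aged group held 7 libraries from mice of 10 to 11 months, and the young group held 7 libraries from mice of 8 to 10 weeks. Both ages were sorted in 2 experiments, with 4 libraries of each age in experiment 2 and 3 of each age in experiment 1. A name such as aged 1.3 stands for replicate 3 of experiment 1. The labels give no other treatment, nor do they state that the libraries come from different animals. The p-values thus rest on the scatter of these libraries, some of which may be technical.

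Notch signalling passes between touching cells: a Delta-like or Jagged ligand on one cell binds a Notch receptor on its neighbour, the receptor is cleaved first by an ADAM protease and then by gamma-secretase, and its freed intracellular part joins RBPJ on DNA to switch on repressors of the Hes and Hey families. In blood vessels Dll4 and Notch restrain sprouting and promote arterial identity, of which ephrin-B2 (Efnb2) is a classical marker. In the mouse liver, endothelial Notch signalling is known to act on the differentiation of the sinusoids.

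The promoters of Dll4 and Efnb2 are shown because the levels of these genes had the highest Pearson correlation across libraries among the 28 pairs of members compared, and that of Notch1 because it alone passed the test between the experiments. Each window runs from 250 bases before to 50 bases after the RefSeq start site in assembly GRCm38.p6 and is printed 5′ to 3′ on the strand of the gene. Capitals mark the CCAAT box (CCAAT, or ATTGG on the other strand) and the GC box (GGGCGG, or CCGCCC on the other strand).
Dll4, chr2:119325534-119325833, plus strand: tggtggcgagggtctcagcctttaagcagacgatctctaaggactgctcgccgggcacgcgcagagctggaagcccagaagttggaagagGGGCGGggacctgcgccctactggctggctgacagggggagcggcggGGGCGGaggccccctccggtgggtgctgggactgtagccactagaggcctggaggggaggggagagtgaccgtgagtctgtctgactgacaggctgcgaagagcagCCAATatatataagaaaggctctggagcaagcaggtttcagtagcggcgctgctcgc
Efnb2, chr8:8661193-8661492, minus strand: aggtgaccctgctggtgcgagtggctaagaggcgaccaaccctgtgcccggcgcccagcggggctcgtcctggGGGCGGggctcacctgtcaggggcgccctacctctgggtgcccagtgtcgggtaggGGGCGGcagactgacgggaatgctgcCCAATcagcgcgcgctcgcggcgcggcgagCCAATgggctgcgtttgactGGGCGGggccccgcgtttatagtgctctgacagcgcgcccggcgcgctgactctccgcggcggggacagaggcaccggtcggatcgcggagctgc
Notch1, chr2:26503773-26504072, minus strand: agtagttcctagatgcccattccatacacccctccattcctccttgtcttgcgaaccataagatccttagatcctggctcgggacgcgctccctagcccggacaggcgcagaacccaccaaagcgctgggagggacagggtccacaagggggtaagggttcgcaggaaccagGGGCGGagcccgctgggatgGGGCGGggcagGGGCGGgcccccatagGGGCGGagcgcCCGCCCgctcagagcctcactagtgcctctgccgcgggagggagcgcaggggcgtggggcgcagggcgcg
Dll4 held 1 CCAAT box and 2 GC boxes, Efnb2 held 2 CCAAT boxes and 3 GC boxes, and Notch1 held 5 GC boxes and no CCAAT box. Of 32851 mouse promoter windows of the same length, 37.4% held a CCAAT box and 35.7% held a GC box. The RBPJ core (TGGGAA, or TTCCCA on the other strand), found in 25.6% of all windows, was in none of these 3 windows. The letters describe these windows only, and windows for Hes1 and Hey1 were not used here.

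The libraries held 6710403 to 13977361 gene reads. Reads were of amplicons, with 1 short amplified stretch per gene, so levels are compared within a gene and never between genes. Summed marker levels are likewise compared between libraries only, not between cell types. Levels are given as CPM, reads scaled to a common library size with the TMM factors of edgeR (trimmed mean of M values). All 10 LSEC markers looked for, among them Stab1, Stab2, Lyve1 and Clec4g, were expressed, with a summed level of 18343 to 31445 CPM in the aged samples and 22290 to 34020 CPM in the young. Markers of other cells were also present. Their sums were 35.3 to 274 CPM in aged and 29.0 to 112 CPM in young samples for Kupffer cells, and 3.23 to 236 and 1.79 to 59.0 CPM for B cells. They were 386 to 4258 and 306 to 1679 CPM for hepatocytes, and 9.37 to 1232 and 8.17 to 188 CPM for monocytes and neutrophils. All tested markers of these 4 lists had positive log2 fold changes of aged over young, with none called. The medians were 1.75, 3.24, 0.77 and 2.24 in that order, and 6 of 7, 4 of 4, 0 of 5 and 3 of 3 had an unadjusted p under 0.05. Of the LSEC markers 2 were positive and 8 negative. Positive were 0 of 3 tested markers of arterial and 1 of 5 of continuous endothelium. For T and NK cells 3 of 4 were positive, and for hepatic stellate cells 4 of 5. All tested markers were positive for lymphatic endothelium, cholangiocytes, smooth muscle and pericytes, and dendritic cells. No marker of any list was called for age. The part of other cells in the age comparison was not tested. The Kupffer marker C1qa and the pericyte marker Cspg4 were under 3 reads in every library. Targets of olfactory, vomeronasal and taste receptors, genes of sensory cells, took a share of gene reads that was 0.145 to 2.90% across experiment 2, against 1.19 to 3.15% across experiment 1. Within experiment 2 this share was 2.90% in young 2.2 and 2.78% in aged 2.4, and at most 0.953% in the other 6 libraries.

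The first question was whether any Notch gene differed between aged and young LSECs. None of the 9 genes passed an adjusted p of 0.05 in edgeR's quasi-likelihood test with the experiment as a term, and none had an unadjusted p under 0.05. Across all 14168 targets tested, 0.162% were called, which were 23 targets, and 959 had an unadjusted p under 0.05. DESeq2 and limma-voom also called none of the 9. An exact permutation test of each gene, which exchanged age labels within the experiments (two-sided, 1400 arrangements, smallest possible p 0.00143), gave p-values of 0.241 for Dll1 to 0.929 for Jag1. After adjustment over all targets, the edgeR p was 0.9996 for each of the 9. By the exact permutation test, 0 of all 14168 targets passed the same adjustment. A smallest p of 0.00143 is coarse for so many targets, so the adjusted permutation values do not single out the 9. Of the log2 fold changes of aged over young, 5 were positive and 4 negative, with a median of 0.01 over the 9 genes, against a median of -0.002 over all targets. The fold changes ran from -0.24 for Dll1 to 0.19 for Hey1, which came to -0.13 for Dll1 without young 2.3 and to 0.03 for Hey1 without aged 1.2. Aged and young libraries overlapped in all 9 genes, where 0.233% of all targets did not overlap. In bulk RNA of this kind, fewer cells that express a gene and less RNA per cell cannot be told apart.

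**Figure D1:**
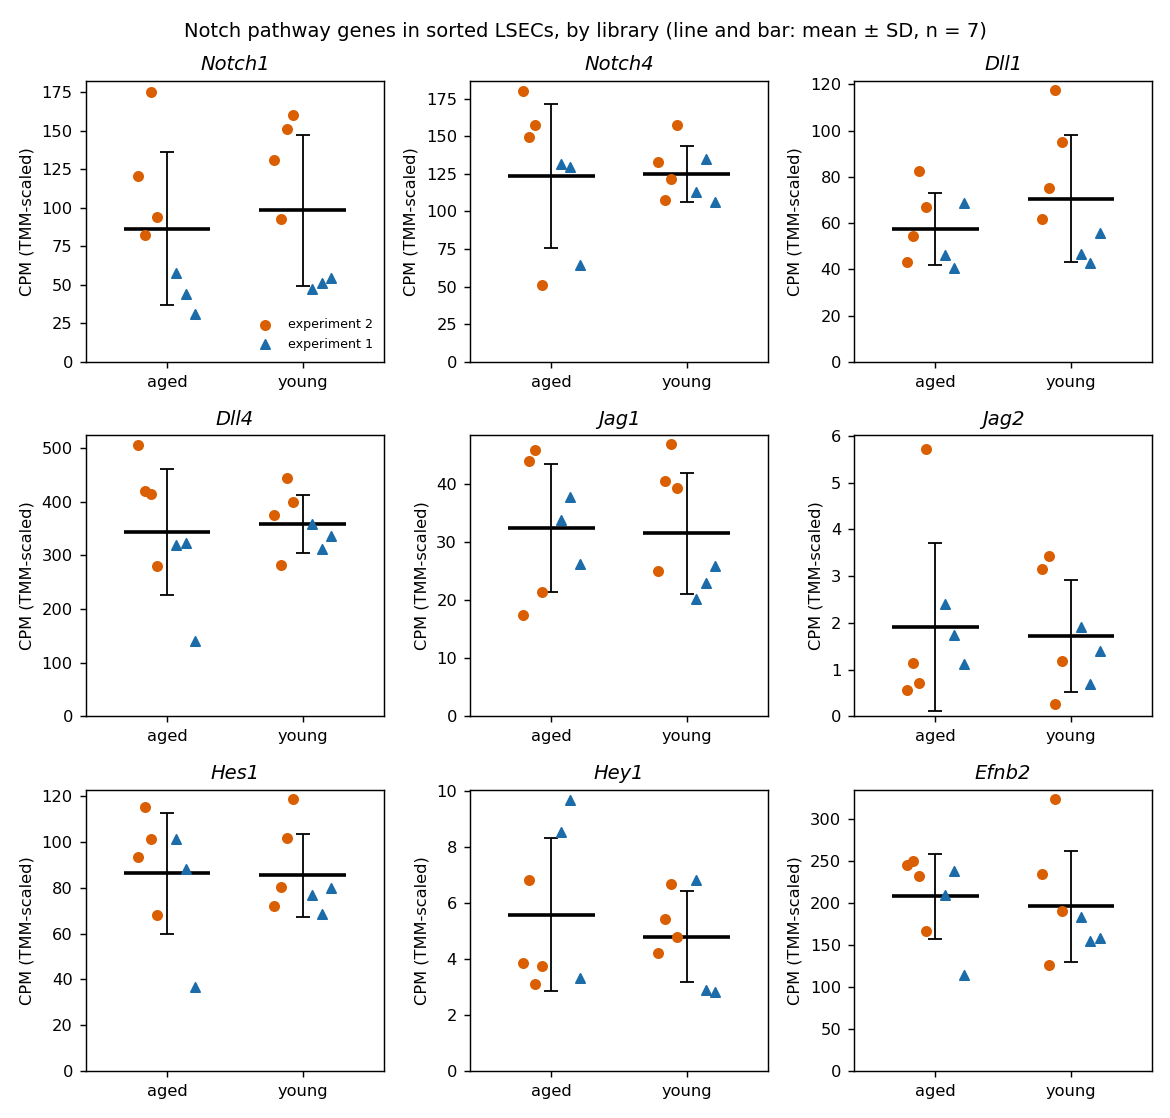
Level of each of the 9 Notch genes in every library, in TMM-scaled CPM on a linear axis from 0, with aged libraries on the left and young on the right; circles are experiment 2, triangles experiment 1, and the line and bar give the mean ± SD over 7 libraries. Aged and young overlap in every panel, and for Notch1 all experiment 2 circles lie above all experiment 1 triangles.

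Both receptors were expressed in every library. Notch1, a receptor used by many tissues including endothelium, had a lowest, median and highest level of 31.2, 82.2 and 175 CPM in aged libraries, against 47.6, 93.0 and 160 CPM in young libraries. Both groups were split by experiment more than by age, and 5 of the 7 aged libraries lay below the young mean of their own experiment. Notch1 averaged 86.4 ± 49.6 CPM in aged LSECs, against 98.4 ± 49.1 CPM in young LSECs (SD, n = 7 each), a log2 fold change of -0.19 (SE 0.182, exact permutation p = 0.264). Its 95% interval of -0.58 to 0.20 on the log2 scale leaves room for a fold of 0.668 to 1.15. The estimate was -0.18 in experiment 2 and -0.20 in experiment 1.

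Notch4, a receptor expressed mainly in endothelium, had a lowest, median and highest level of 51.2, 132 and 180 CPM in aged libraries, against 106, 122 and 158 CPM in young libraries. The spread was wider in aged libraries, with an SD of 48.1 CPM against 18.4 CPM in young ones, and aged 2.4 at 51.2 CPM and aged 1.3 at 64.6 CPM lay below every young library. The other 5 aged libraries held 130 to 180 CPM. On average Notch4 stood at 124 ± 48.1 CPM in aged LSECs, against 125 ± 18.4 CPM in young LSECs, a log2 fold change of -0.02 (95% interval -0.53 to 0.49, exact permutation p = 0.660). Without aged 2.4 the estimate was 0.12, and without aged 1.3 it was 0.09, so its sign rested on single libraries.

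Among the ligands, Dll4 is the main Delta-like ligand of blood vessel endothelium. Its lowest, median and highest levels were 141, 322 and 505 CPM in aged libraries, against 282, 358 and 444 CPM in young libraries. Aged 1.3 and aged 2.4 were the lowest aged libraries at 141 and 281 CPM, and aged 2.1 at 505 CPM was the highest of all 14. The means were 343 ± 117 CPM in aged LSECs, against 358 ± 54.4 CPM in young LSECs, with a log2 fold change of -0.09 (95% interval -0.51 to 0.32, exact permutation p = 0.616). Leaving out aged 1.3 turned this to 0.05. By experiment, the fold change was 0.11 in experiment 2 and -0.36 in experiment 1, a difference of 0.47 (SE 0.382).

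Dll1, a Delta-like ligand that also acts in lymphocyte development, had the fold change farthest from 0 on the negative side. Its lowest, median and highest levels were 40.7, 54.4 and 82.5 CPM in aged libraries, against 42.8, 61.7 and 118 CPM in young libraries, and 6 of 7 aged libraries lay below the young mean of their experiment. The log2 fold change was -0.24 (SE 0.195, 95% interval -0.66 to 0.18, exact permutation p = 0.241). In experiment 2 it stood at a mean of 61.7 ± 16.9 CPM in aged LSECs, against 87.4 ± 24.4 CPM in young LSECs (SD, n = 4 each), which is -0.50 on the log2 scale (SE 0.243, edgeR adjusted p 0.9999). In experiment 1 the means were 51.9 ± 14.9 CPM in aged LSECs, against 48.3 ± 6.57 CPM in young LSECs (SD, n = 3 each), a log2 fold change of 0.10, and the difference between the experiments was -0.60 (SE 0.371).

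Jag1, the Jagged ligand whose loss disturbs bile duct formation in mouse and human, had levels of 17.4, 33.7 and 45.9 CPM as lowest, median and highest in aged libraries, against 20.2, 25.9 and 46.8 CPM in young libraries. The groups covered almost the same range. Its log2 fold change was 0.08 (95% interval -0.45 to 0.61, exact permutation p = 0.929), with -0.23 in experiment 2 and 0.50 in experiment 1, a difference of -0.73 (SE 0.476). In experiment 1 the aged libraries held 26.2 to 37.8 CPM and the young 20.2 to 25.9 CPM (edgeR unadjusted p = 0.188). In experiment 2, aged 2.1 at 17.4 CPM and aged 2.4 at 21.5 CPM were the lowest of 8.

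Jag2, the other Jagged ligand, rested on few reads, from 2 reads in young 2.3 to 55 reads in aged 2.4. Its lowest, median and highest levels were 0.566, 1.15 and 5.73 CPM in aged libraries, against 0.272, 1.40 and 3.44 CPM in young libraries. The log2 fold change of 0.17 had an interval of -1.09 to 1.43 (exact permutation p = 0.890), the widest of the 9 genes, and it was -0.48 without aged 2.4. Within experiment 2, Jag2 was highest in aged 2.4, young 2.2 and young 2.1, the 3 libraries with the largest share of sensory receptor reads. Over 14 libraries, after each age and experiment was centred on its mean, the correlation of log2 level with that share was r = 0.903 and rho = 0.934 (permutation p = 0.00085 and 0.0005), with r = 0.917 within experiment 2 and 0.778 within experiment 1. It was r = 0.770 without aged 2.4 and young 2.3, the libraries farthest from the median of Jag2. This relation was computed after the values had been seen and was not adjusted for other relations, and whether these Jag2 reads come from LSECs was not tested.

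**Figure D2:**
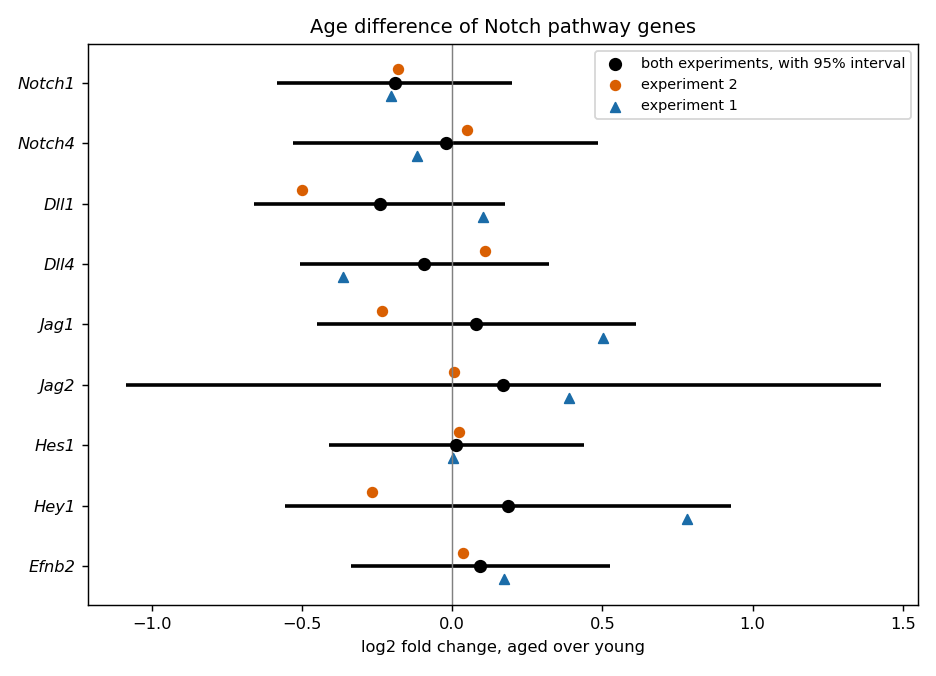
Log2 fold change of aged over young for each Notch gene on a linear axis, with black points and lines for the estimate over both experiments and its 95% interval, circles for experiment 2 and triangles for experiment 1. All 9 intervals include 0, and that of Jag2, from -1.09 to 1.43, is the widest.

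The targets of the pathway likewise did not separate by age. Hes1, a repressor and direct target of the cleaved receptor in many cell types, had a lowest, median and highest level of 36.5, 93.5 and 115 CPM in aged libraries, against 68.8, 80.1 and 119 CPM in young libraries. Aged 1.3 at 36.5 CPM lay far below every other library, and 5 of 7 aged libraries lay above the young mean of their experiment. Means were 86.3 ± 26.3 CPM in aged LSECs, against 85.4 ± 18.1 CPM in young LSECs, with a log2 fold change of 0.01 (95% interval -0.41 to 0.44, exact permutation p = 0.876). Without aged 1.3 it was 0.14.

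Hey1, a related repressor that Notch induces in arterial endothelium, was low, with 33 to 110 reads per library. Its lowest, median and highest levels were 3.10, 3.85 and 9.68 CPM in aged libraries, against 2.80, 4.76 and 6.81 CPM in young libraries. Aged 1.1 and aged 1.2 were the highest of the 14 at 8.52 and 9.68 CPM, while 4 of 7 aged libraries lay below the young mean of their experiment. The log2 fold change was 0.19 (SE 0.346, 95% interval -0.56 to 0.93, exact permutation p = 0.671). It was -0.27 in experiment 2 and 0.78 in experiment 1, and the difference of -1.05 had an SE of 0.656.

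Efnb2, a membrane-bound ligand of Eph receptors, had a lowest, median and highest level of 114, 232 and 250 CPM in aged libraries, against 126, 184 and 324 CPM in young libraries. Aged libraries other than 1.3 and 2.4 were close together at 210 to 250 CPM, and the highest level of all, 324 CPM, was in young 2.3. The log2 fold change was 0.09 (95% interval -0.34 to 0.53, exact permutation p = 0.657), with 0.03 in experiment 2 and 0.17 in experiment 1.

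Within the single experiments, again none of the 9 genes was called by edgeR, and none had an unadjusted p under 0.05. Over all targets 0.00706% were called in experiment 2, a single target, and 0% in experiment 1, while 395 targets in experiment 2 and 914 in experiment 1 had an unadjusted p under 0.05. For the age effect in experiment 2 minus that in experiment 1, edgeR likewise called none of the 9 genes, none of which had an unadjusted p under 0.05, and 0% of all targets, of which 309 had an unadjusted p under 0.05.

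Aged 1.3 stood apart across several Notch genes. It had the lowest level of all 14 libraries for Notch1 at 31.2 CPM, Dll4 at 141 CPM, Hes1 at 36.5 CPM and Efnb2 at 114 CPM, and the lowest of experiment 1 for Notch4 at 64.6 CPM. Dll1 did the opposite, since its 68.8 CPM in aged 1.3 was the highest of experiment 1. Counted from the lowest of the 14 libraries, aged 1.3 ranked 4 for Hey1, 5 for Jag2 and 7 for Jag1. It also had the highest TMM factor of the 14, and a higher factor lowers the CPM of every target. How many of all targets were lowest in aged 1.3 was not counted, so its low levels are not shown to be particular to Notch genes. The same library had the lowest LSEC marker sum, at 18343 CPM, and the highest sums for hepatocytes at 4258 CPM, for Kupffer cells at 274 CPM and for T and NK cells at 257 CPM. Its B cell sum of 195 CPM was exceeded only by 236 CPM in aged 2.2. The part of these markers in the Notch levels of aged 1.3 was not tested. Leaving this library out gave no call for age in any of the 9 genes.

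**Figure D3:**
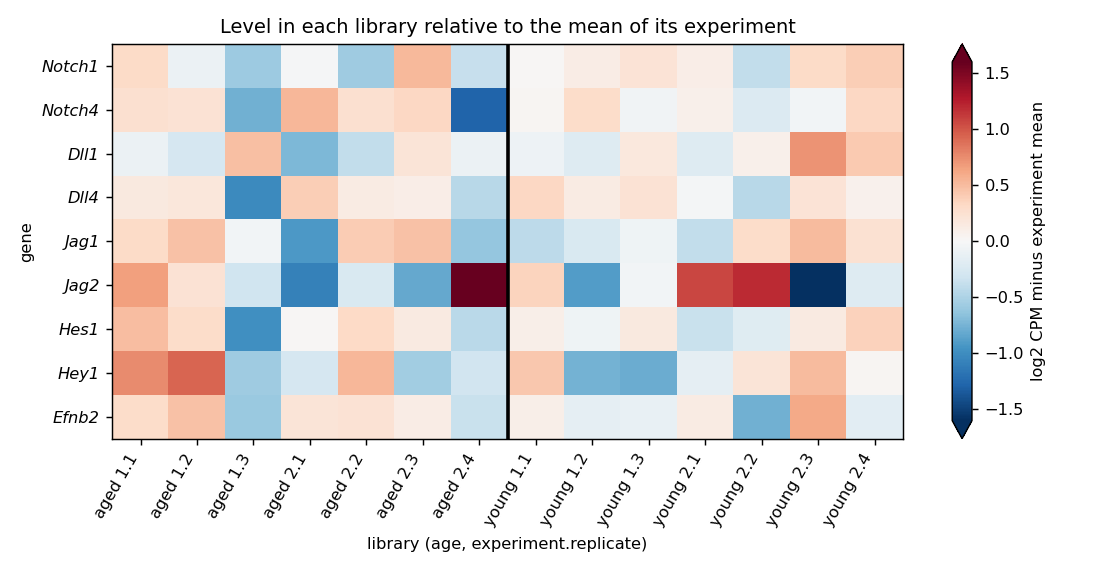
Log2 CPM of each Notch gene in each library minus the mean of its experiment, with aged libraries left of the black line, young libraries right of it, red above and blue below the experiment mean; the colour scale ends at 1.6 either way. Aged 1.3 is blue for Notch1, Notch4, Dll4, Jag2, Hes1, Hey1 and Efnb2 and red for Dll1, and Jag2 varies most.

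The levels of 8 of the genes, leaving out Jag2 with under 5 CPM on average, were compared with each other across the 14 libraries after centring within age and experiment. Of the 28 pairs, 22 had a positive correlation. None of the 36 relations computed, 28 between genes and 8 with the sensory receptor share, passed an adjusted p of 0.05. The highest by Pearson r was that of Dll4 and Efnb2, whose promoters are printed above, with r = 0.875 and rho = 0.780 (permutation p = 0.00217 and 0.0149, adjusted p 0.0781 and 0.160). It was r = 0.829 within experiment 2 and 0.983 within experiment 1, and 0.837 without aged 1.3 and aged 2.4. Without TMM scaling this pair passed, with r = 0.800 and an adjusted p of 0.0230.

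Dll4 and Hes1, ligand and target, had r = 0.865 (permutation p = 0.0247, adjusted p 0.130) and a rho of 0.807, above the rho of Dll4 and Efnb2, and its r came to 0.360 without aged 1.3 and aged 2.4. Notch4 and Dll4, receptor and ligand, had r = 0.806 (permutation p = 0.0126, adjusted p 0.130), which came to 0.452 without the same libraries. Both relations were weaker without those 2 libraries, which lay farthest from the median of the first gene. Leaving out such libraries narrows the range, so the drop does not decide how far the relations rested on them. Without aged 1.3 alone, r was 0.645 for Dll4 and Hes1 and 0.783 for Notch4 and Dll4. Within experiment 2 r was 0.66 and 0.829 in that order, and within experiment 1 it was 0.985 and 0.916. For Notch4, Notch1, Efnb2 and Dll4, r with the share of sensory receptor reads was -0.685, -0.676, -0.582 and -0.534, each with an adjusted p of 0.130. In that order, r was -0.767, -0.823, -0.758 and -0.895 within experiment 2. Within experiment 1 it was -0.329, 0.00611, 0.045 and 0.0513, so the last 3 genes had the negative relation in experiment 2 only. The rho of Efnb2 with that share was -0.275. Removing that share from the levels by regression left r = 0.821 for Dll4 and Efnb2 (permutation p = 0.00387, adjusted p 0.108), with 0.521 within experiment 2 and 0.983 within experiment 1.

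**Figure D4:**
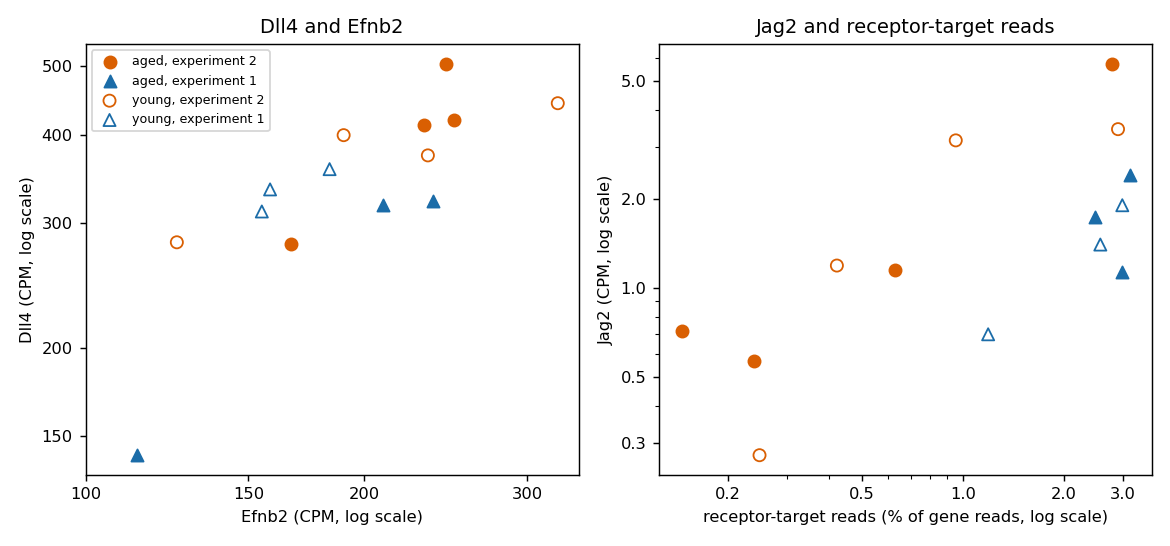
Left, Dll4 against Efnb2, and right, Jag2 against the share of gene reads on sensory receptor targets, 1 point per library on log axes, filled for aged and open for young, circles for experiment 2 and triangles for experiment 1. Dll4 and Efnb2 are both lowest in aged 1.3 at 141 and 114 CPM, and Jag2 is highest, at 5.73 CPM, in aged 2.4, where the receptor share is 2.78%.

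The libraries of experiment 2 and experiment 1 differed more than the ages did, and Notch1 was the Notch gene that did so. All levels of Notch1 were higher in experiment 2, at 82.2 to 175 CPM over 8 libraries, against 31.2 to 57.9 CPM over 6 libraries of experiment 1. Its means were 126 ± 34.4 CPM in experiment 2 and 47.7 ± 9.49 CPM in experiment 1, a fold of 2.64 and a log2 fold change of 1.40 (SE 0.191, 95% interval 0.99 to 1.81, edgeR adjusted p 0.00335). The gap was present at both ages. Aged libraries held 118 ± 41.3 CPM in experiment 2 and 44.4 ± 13.4 CPM in experiment 1, and young libraries held 134 ± 29.9 CPM in experiment 2 and 51.1 ± 3.55 CPM in experiment 1.

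Between the experiments, 7.79% of all targets were called, of which 990 were higher and 113 lower in experiment 2, and in 2.17% of targets the experiments did not overlap. These 1103 calls were 167 without young 2.1, 4029 without young 2.2 and 5057 without aged 2.4, so the share called rested on single libraries. Notch1, 1 gene of 9 called and not overlapping, is to be read beside those shares. Notch1 ranked 16 of the 14168 targets by p. The median log2 change over all targets was 0.12 and moved to -0.02 without TMM scaling, under which Notch1 was at 1.25 (adjusted p 0.00221). Scaling shifts all targets nearly alike, so the distance of Notch1 from that median is no separate check. With the sensory receptor share as a covariate Notch1 was at 0.998 (adjusted p 0.0295), and it was at least 1.25 in each fit that left out 1 library. Of the other Notch genes, Dll1 had a log2 change of 0.55 (adjusted p 0.0950), Dll4 0.40, Jag2 0.40, Jag1 0.34, Efnb2 0.33, Hes1 0.32, Notch4 0.23 and Hey1 -0.20, and none of these was called. With the receptor share as a covariate Jag2 was at 1.59 (adjusted p 0.0520), Dll4 at 0.03 and Hes1 at 0.08. Without young 2.2 and aged 2.4, Dll1 at 0.56, Dll4 at 0.52 and Efnb2 at 0.48 were called as well, beside 7738 of all 14202 targets tested there.

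Other measures moved with the experiment too. The summed level of cholangiocyte markers was 38.3 to 903 CPM in experiment 2 and 13.4 to 23.7 CPM in experiment 1, without overlap, and 2 of 3 tested were called higher in experiment 2. Lymphatic endothelium markers summed to 11.8 to 94.0 CPM in experiment 2, against 4.03 to 15.9 CPM in experiment 1, with 1 of 2 tested called higher. Of the LSEC markers 2 of 10, and of the monocyte and neutrophil markers 1 of 3, were called higher in experiment 2, and none of the marker genes was called lower. No gene of the other marker lists was called. These counts are to be read beside the 7.79% of all targets called between the experiments. The sum of hepatic stellate cell markers was 38.9 to 345 CPM in experiment 2 and 29.4 to 77.5 CPM in experiment 1, with no gene of 5 called. The share of sensory receptor reads differed as given above. Their part in the Notch1 difference was not tested beyond the fit with the receptor share. The labels do not say whether the experiments differed in sorting, extraction or sequencing.

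A wider set of 97 genes of the pathway and of endothelial identity was read for the same age comparison, of which 92 matched a target and 76 were tested. A single one, Dkk3, rose in aged libraries, none fell, and 10 had an unadjusted p under 0.05. The median log2 fold change of the 76 was -0.05, and the share called over all targets was the 0.162% given above. Dkk3, a secreted Dickkopf family protein read here as a pericentral gene, averaged 70.4 ± 23.2 CPM in aged LSECs, against 21.0 ± 11.7 CPM in young LSECs (log2 1.79, edgeR adjusted p 0.00715).

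Of the other receptors and ligands, 4 of 7 were tested and none was called. Notch2, which in the mouse liver acts in bile duct formation, averaged 30.6 ± 21.2 CPM in aged LSECs, against 16.3 ± 6.19 CPM in young LSECs, a log2 fold change of 0.88 (edgeR adjusted p 0.693). Its highest levels were 68.8 CPM in aged 2.2, 44.0 CPM in aged 2.1 and 34.4 CPM in aged 2.3. In those libraries, in the same order, the B cell marker sum was 236, 125 and 10.3 CPM. The monocyte and neutrophil sum was 616, 234 and 1232 CPM, the cholangiocyte sum 903, 38.3 and 334 CPM, and the hepatic stellate cell sum 140, 102 and 345 CPM. The part of any of these cells in the Notch2 level was not tested. Notch3 had a log2 fold change of 0.38 (SE 0.685), and Egfl7, a secreted endothelial protein that binds Notch, had -0.08 (SE 0.227).

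For the enzymes that act on ligand and receptor, none of 5 ligand endocytosis genes, 6 receptor glycosylation genes, 8 receptor cleavage genes and 7 receptor turnover genes tested was called for age. Neurl1b, a ubiquitin ligase for Notch ligands, averaged 7.02 ± 4.14 CPM in aged LSECs, against 12.9 ± 15.3 CPM in young LSECs (log2 -0.82, edgeR adjusted p 0.738), where young 2.4 alone held 46.5 CPM. Epn2, an endocytic adaptor, had a log2 fold change of 0.15, and Mib1, the ubiquitin ligase that acts on Notch ligands in mouse development, had -0.12. The fringe enzymes that glycosylate Notch had log2 fold changes of 0.38 for Mfng, 0.28 for Lfng and 0.27 for Rfng. Furin, the protease of the first cut of the receptor in the secretory pathway, stood at 39.0 ± 7.98 CPM in aged LSECs, against 29.1 ± 6.18 CPM in young LSECs (log2 0.43, edgeR adjusted p 0.671). Aph1b, a subunit of gamma-secretase, had a log2 fold change of 0.44 (edgeR adjusted p 0.684), and Adam17, a protease of the receptor, had -0.37. The turnover genes had a median of 0.03, with Dtx2 at -0.22, Itch at -0.06 and Nedd4 at 0.09.

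In the nucleus, 10 cofactors were tested and none was called, with 9 negative and 1 positive log2 fold changes and a median of -0.10. Hdac2, a deacetylase of corepressor complexes, had -0.28 (edgeR adjusted p 0.732), Kat2b, an acetyltransferase coactivator, had -0.21, and Spen, a corepressor that binds RBPJ, had -0.09. Of the other Hes and Hey family genes and Nrarp, 3 were tested and none was called. Nrarp, a negative regulator that Notch induces, averaged 91.8 ± 17.4 CPM in aged LSECs, against 87.0 ± 27.2 CPM in young LSECs (log2 0.10, SE 0.171). Hes6 was at 0.03, and Hes2 was at 0.86 with an SE of 0.675. Among the 6 tested ephrin-B and Eph receptor genes none was called. Ephb4, the venous receptor of ephrin-B2, averaged 150 ± 73.9 CPM in aged LSECs, against 168 ± 78.7 CPM in young LSECs (log2 -0.15), and Ephb3 was at 0.41 and Epha4 at -0.31.

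Genes of arterial, venous and tip cell identity gave no call for age in 14 tested. Cxcr4, a chemokine receptor of tip cells and also of leukocytes, had 39.1 ± 38.0 CPM in aged LSECs, against 8.31 ± 6.20 CPM in young LSECs (log2 2.46, edgeR adjusted p 0.491), with the highest levels of 94.2 CPM in aged 1.3, 76.8 CPM in aged 2.2 and 61.3 CPM in aged 2.1. These were also the libraries with the 3 highest B cell marker sums, of 195, 236 and 125 CPM, and the part of leukocytes in the Cxcr4 level was not tested. Pdgfb, a growth factor that endothelium sends to pericytes, had a log2 fold change of 0.74 (adjusted p 0.872), and Nr2f2, a transcription factor of venous identity, had -0.29 (adjusted p 0.968). The summed level of the arterial markers was 9.36 to 22.4 CPM in the aged samples and 11.1 to 36.4 CPM in the young. Of the LSEC zonation genes, none of 6 periportal genes was called, with Il1a at -0.82 (edgeR adjusted p 0.673), Ntn4 at 0.41 and Adam23 at -0.19. Among 8 pericentral genes Dkk3 was the one called, and its rise was not shared by the list. Of the 8 log2 fold changes, 3 were positive and 5 negative, with a median of -0.36.

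Between the experiments, 8 of these 76 genes were higher and 1 was lower in experiment 2, against 7.79% of all targets called. Ephb4 had a log2 change of 1.28 (edgeR adjusted p 0.00335), Neurl1b 1.98 (adjusted p 0.0162), Spen 0.60 (adjusted p 0.00911), Epn1 0.80 (adjusted p 0.0198), Aph1b 0.68 (adjusted p 0.0410), Numb 0.43 (adjusted p 0.0477), Flt4 0.61 (adjusted p 0.0352) and Il1a 1.57 (adjusted p 0.0197). Dkk3 was the gene that was lower in experiment 2, at -0.84 (adjusted p 0.0386).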

How the data were processed

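The authors deposited 1 table of raw read counts per RefSeq transcript target for each of 14 libraries, from Ion AmpliSeq mouse transcriptome libraries, per the labels' protocols. HTSeq 0.6.0 and DESeq2 1.18.1 were used, per the submitters' processing notes. Aligner, genome build and strand setting: not given in the sources used here. Of the 23930 targets, 18128 matched a gene of the RefSeq table of GRCm38.p6 by versioned accession, 4324 without version and 110 through GENCODE, and 1368 stayed unmatched. Unmatched targets were kept and were tested where they passed the filter on counts. The 5 bookkeeping entries, 1.24 to 3.04% of reads, were left out. Reads carry no molecular identifiers.

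Counts were fitted in R 4.3.3 with edgeR 4.0.16 (filterByExpr by age, TMM, quasi-likelihood F test, experiment as a term), with a model of age by experiment for contrasts within experiments. P-values were Benjamini-Hochberg adjusted over all 14168 targets tested, with a threshold of 0.05. SDs and ranges are of CPM, and each SE is the log2 fold change over the root of F. Correlations used log2 CPM (prior count 2) centred within age and experiment, with 100000 permutations within those groups. Alternatives used DESeq2 1.42.0 and limma 3.58.1. The scripts were tested on simulated data. Members and gene lists were chosen with earlier results of these data known. All members are named, and of each other list the called genes and otherwise up to 3 with the smallest p of the age comparison. Between experiments, every called gene of these lists is named, which was decided after the values were seen. Replicate numbers recur in both ages, and deviations of same-numbered libraries had correlations of -0.385 to 0.776, which do not settle whether they were paired. The main fit used no pairing, and a replicate block was fitted as an alternative.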

Additional observations from a re-analysis of the deposited data

Results flagged for a closer look

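Jag2 in aged 2.4, at 5.73 CPM, stood apart from the other aged libraries, the nearest of which held 2.40 CPM, since the gap between both values made up 0.645 of the whole range of the group. Over 18 groups of libraries checked, 9 genes at each age, this was the single value so far from the rest, and chance alone marks about 1 group in 20.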

How the results depend on the processing

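No member was called for age under DESeq2, limma-voom, no TMM scaling, no filter, a filter of 10 reads in 7 libraries, the replicate block, no experiment term, the receptor share as a covariate, without young 2.2 and aged 2.4, with aged 1.1 and aged 1.2 summed, or when any 1 library was left out. Called targets over the whole table numbered 23, against 46 without TMM, 146 with DESeq2, 59 with the covariate, 36 without young 2.2 and aged 2.4, 12 without the experiment term, 5 with the replicate block and 4 with aged 1.1 and aged 1.2 summed, and 4 to 29 when 1 library was left out (4 without aged 1.1 or aged 1.2). Between experiments the 1103 became 615, 2006, 367 (no filter), 191 (covariate), 7738 (without young 2.2 and aged 2.4) and 325 (summed), and 167 (without young 2.1) to 5057 (without aged 2.4) when 1 library was left out. Notch4 came to 0.0122 without TMM and 0.0618 without young 2.2 and aged 2.4, where Jag2 came to -0.26. Hes1 came to -0.0388 with limma-voom, -0.00337 without the filter, -0.0309 with the replicate block, -0.00153 with the covariate and -0.0578 with the summed pair. Leaving out 1 library gave age ranges of -0.0872 to 0.141 for Hes1, -0.00524 to 0.218 for Jag1, -0.121 to 0.116 for Notch4, -0.177 to 0.0452 for Dll4, -0.00310 to 0.232 for Efnb2, -0.477 to 0.376 for Jag2, -0.369 to -0.128 for Dll1, -0.330 to -0.115 for Notch1 and 0.0283 to 0.301 for Hey1. The -0.477 of Jag2, without aged 2.4, exceeded in size the log2 fold change reported over both experiments and all libraries for any member. Between experiments and with the covariate, Notch4 came to -0.31, Efnb2 to -0.0590, Dll4 to 0.0342, Hes1 to 0.0803, Jag1 to 0.19, Hey1 to -0.0407 and Jag2 to 1.59. Jag2 came to -0.41 without young 2.2 and aged 2.4, with -0.19 to 0.56 over single libraries left out. There 4 members were called without young 2.2 and aged 2.4, and 1 to 2 with single libraries left out, since Dll1 passed without aged 1.3 (0.70, adjusted p 0.0430). Of the member pairs, 1 passed without TMM and 0 with the receptor share removed. The settings of the experiment contrast that leave out libraries were chosen after the data had been seen. The cause of these shifts was not tested. Jag2 and Hey1 had the fewest reads of the members, at 2 to 55 and 33 to 110 reads per library.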
